A study of Mus musculus with 12 samples.

Results

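The conjugation enzymes and export pumps of mouse colonoids were described as 3 gene families: the UDP-glucuronosyltransferases (UGT, 22 genes), the cytosolic sulfotransferases (SULT, 21 genes) and the ABC export pumps of the ABCC family with Abcb1a and Abcb1b (12 genes). The members were the protein-coding genes of the deposited table whose symbols begin with Ugt, Sult or Abcc and a digit, plus those 2 Abcb1 genes, 55 of 54532 genes in all. Colonoids are organoids grown from colonic epithelial stem cells, here from the colons of healthy mice of 8 to 12 weeks. Poly-A mRNA was sequenced from 4 groups of 3 libraries: colonoids of control mice (Hmox1 fl/fl) and colonoids labelled KO (Hmox1 floxed, with Vil1 Cre), each given vehicle or hemin. Hemin was given at 200 µM for 24 hours, and both genotypes carried the floxed Hmox1 allele. Vil1 Cre is driven by the villin promoter, which is active in villus and crypt epithelial cells, so the deletion was aimed at the epithelium alone. The genotype of the 3rd library labelled KO with hemin was written with the floxed alleles where the others were written as KO. The labels do not say whether the libraries of a group came from separate mice or cultures, so p-values measure only the spread between these libraries, which may be technical.

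Conjugation makes a lipid-soluble compound water-soluble and bulky by joining it to a sugar acid or a sulfate. UGT enzymes of the endoplasmic reticulum transfer glucuronic acid from UDP-glucuronic acid, and SULT enzymes of the cytosol transfer sulfate from PAPS, the activated form of sulfate. The conjugates cannot cross membranes unaided, and ABCC pumps carry them out of the cell, through the apical membrane to the lumen or through the basolateral membrane to the blood. Heme oxygenase-1, the product of Hmox1, opens heme to biliverdin, which biliverdin reductase turns into bilirubin; UGT1A1 then conjugates bilirubin for export by these pumps.

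The targeted gene gave a check of the labels. Hmox1 was at an FPKM (fragments per kilobase of gene, scaled to the library) of 7.62, 6.85 and 7.90 in control with vehicle and 3.14, 2.11 and 2.31 in those labelled KO. With hemin it was at 503, 483 and 382 in control and at 1279, 1393 and 1271 in those labelled KO. The 2 genotypes did not overlap with either treatment, and the libraries labelled KO were the lower with vehicle (log2 fold change -1.27, SE 0.12, limma adjusted p = 1.25e-05) and the higher with hemin (1.53, SE 0.12, limma adjusted p = 3.29e-06). A fold change here is a difference of log2(FPKM + 1), which understates the change of low genes. The level with hemin is not in the direction of the label, so these libraries are called labelled KO throughout. FPKM is taken over the whole gene and does not show whether the floxed part was present in these transcripts. Fragments on genes ran from 11648801 to 25101868 per library, with control and hemin the shallowest group (11648801 to 11935604). The short RNA gene Gm23935 took 16.8%, 28.99% and 21.05% of the summed FPKM in the 1st control library with vehicle, the 1st control library with hemin and the 2nd library labelled KO with hemin, and at most 2.81% in the other 9.

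All 8 markers of intestinal epithelium were measured in every group, and the markers of fibroblasts, leukocytes and endothelium each summed to at most 0.568 FPKM in any library. Markers of cell state and of region differed between groups. The 7 goblet cell genes summed to 1571 to 1832 FPKM in control with vehicle, 1041 to 1403 in control with hemin, 1886 to 1978 in those labelled KO with vehicle and 468 to 534 in those labelled KO with hemin. The 9 posterior colon Hox genes summed to 7.76 to 14.1 FPKM in the 6 control libraries and to 196 to 209 in the 6 libraries labelled KO. The 6 enteroendocrine genes summed to 27.7 to 45.1 FPKM in control and 386 to 588 in those labelled KO, with Pyy alone at 295 to 417 there. Between genotypes 5 of the 6 were called higher in those labelled KO with vehicle (3.53% of all genes tested). With hemin 3 were called higher and 1 lower (3.1% and 2.91%). Neurog3 and Gcg were lower in those labelled KO with hemin than in control with hemin, without overlap. The 5 hepatocyte markers summed to 0.895 to 3.45 FPKM in control and 9.52 to 13.1 in those labelled KO, with Cyp2e1 and Serpina1a at 3 fragments or fewer in every library. With hemin the 7 stem and proliferation genes summed lower (72.6 to 84.2 against 162 to 182 FPKM in control, 127 to 141 against 233 to 237 in those labelled KO). Of the 8 absorptive colonocyte genes, 1 was called higher and 2 lower with hemin in control (median log2 fold change -0.23) and 2 higher and 3 lower in those labelled KO (-0.76). Their summed FPKM was higher with hemin (4855 to 7296 against 2794 to 3040 in control, 3389 to 4243 against 2029 to 2081 in those labelled KO), with Car1 alone at 3983 to 6351 against 1991 to 2212 and 2671 to 3073 against 1282 to 1343. The small intestine and tuft cell markers summed to at most 2.95 and 0.553 FPKM. The part of these markers in the differences below was not tested, and in these bulk libraries fewer cells of a type and less RNA per cell cannot be told apart.

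The 9 Ugt1a genes on chr1 are first exons of 1 locus, each spliced to the same downstream exons, and the sequences where they join are printed for 3 of them. In the annotation used here (mm10, the GRCm38 build) 3 exons, chr1:88215044-88215175, chr1:88215795-88215882 and chr1:88216138-88216357, stand in all 9 gene models. The first exon encodes the part of the enzyme that binds the compound, and the shared exons the part that binds the sugar donor. The last 30 bases of the first coding exon are printed in lower case and the first 30 bases of the shared exon in capitals, from the + strand.
Ugt1a1: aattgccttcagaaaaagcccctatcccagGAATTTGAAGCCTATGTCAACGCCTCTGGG
Ugt1a6a: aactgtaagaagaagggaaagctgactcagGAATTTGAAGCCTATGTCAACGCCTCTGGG
Ugt1a7c: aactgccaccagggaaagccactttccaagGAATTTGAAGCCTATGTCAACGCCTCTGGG
The capitals are identical in the 3 genes (chr1:88215044-88215073), and the lower-case parts end at chr1:88212842-88212871, chr1:88139302-88139331 and chr1:88095949-88095978. A fragment wholly inside the shared exons cannot be given to 1 gene from its sequence. The exon that holds the lower-case part of Ugt1a6a also stands in the Ugt1a7c model, so a fragment there is not particular to Ugt1a6a.

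Ugt1a8, Ugt1a9 and Ugt1a10 hold those same exons and were listed at 0 fragments in all 12 libraries, so fragments of the shared exons were not counted to them. Bases that no other gene model covers made up 385 of the 2224 bases of Ugt1a1, 2142 of the 4312 of Ugt1a6a and 1915 of the 4219 of Ugt1a7c. FPKM divides by the whole length, so levels of Ugt1a genes are understated to different degrees and are not ranked against each other here. Of the 1915 bases of Ugt1a7c, 998 lie beyond chr1:88219004, where the other models end, and run to chr1:88220002. Were transcripts of other Ugt1a genes to run on into them, their fragments could not be told apart from those of Ugt1a7c. Most of the 2142 bases of Ugt1a6a lie within an exon of its model at 159.656 to 162.016 kb from the start of Ugt1a10. That exon covers the shared exons and introns around them, so unspliced RNA of any Ugt1a gene could give fragments there. The coding first exon of Ugt1a6a, at 83.085 to 83.944 kb, also stands in the Ugt1a7c model. Gm20528, annotated antisense over the locus, was at 0 fragments in all 12 libraries, and the strand setting of the counting is not given in the sources used here.

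**Figure D1:**
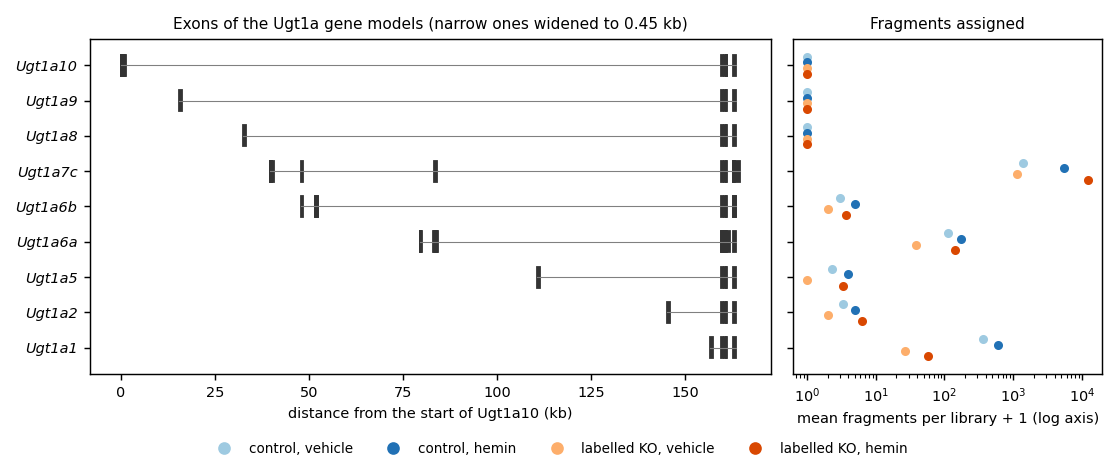
Left, exons (boxes) of the 9 Ugt1a gene models by distance in kb from the start of Ugt1a10; right, the mean number of fragments assigned per library plus 1 (log axis) in the 4 groups of 3 libraries. The right-hand exons stand in all 9 models, while Ugt1a8, Ugt1a9 and Ugt1a10 sit at 0 fragments and Ugt1a1, Ugt1a6a and Ugt1a7c are those tested; fragments are not divided by the bases of each gene.

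Promoter sequences are shown for Abcc2 and Abcc4, among the pumps with a called difference in hemin response, and for the UGT gene with the largest rise on the log2(FPKM + 1) scale. They come from RefSeq (GRCm38.p6) and run from 250 bases before to 50 bases after the start site. A promoter was found for 45 of the 55 members, and for 18 of the 21 members that were tested, with 22 promoters among them. The tested members without one are Abcc1, Abcc3 and Abcc6. Capitals mark the antioxidant response element core TGACNNNGC and the xenobiotic response element core GCGTG, searched on both strands, which are the core letters bound by the NRF2 and BACH1 partners of small MAF proteins and by the aryl hydrocarbon receptor.
Abcc2, chr19:43782058-43782357, + strand: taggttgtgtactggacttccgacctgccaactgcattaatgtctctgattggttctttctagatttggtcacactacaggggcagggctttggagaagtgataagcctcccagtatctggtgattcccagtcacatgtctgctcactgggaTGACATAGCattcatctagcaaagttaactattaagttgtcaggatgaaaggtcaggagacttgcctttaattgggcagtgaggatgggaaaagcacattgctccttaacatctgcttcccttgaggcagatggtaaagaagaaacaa
Abcc4, chr14:118706170-118706469, - strand: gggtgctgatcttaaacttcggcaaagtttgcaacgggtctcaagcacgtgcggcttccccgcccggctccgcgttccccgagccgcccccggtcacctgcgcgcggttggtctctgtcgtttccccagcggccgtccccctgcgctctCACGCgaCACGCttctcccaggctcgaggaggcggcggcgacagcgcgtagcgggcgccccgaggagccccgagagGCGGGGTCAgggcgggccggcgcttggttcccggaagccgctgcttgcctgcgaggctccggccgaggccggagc
Ugt1a7c, chr1:88094751-88095050, + strand: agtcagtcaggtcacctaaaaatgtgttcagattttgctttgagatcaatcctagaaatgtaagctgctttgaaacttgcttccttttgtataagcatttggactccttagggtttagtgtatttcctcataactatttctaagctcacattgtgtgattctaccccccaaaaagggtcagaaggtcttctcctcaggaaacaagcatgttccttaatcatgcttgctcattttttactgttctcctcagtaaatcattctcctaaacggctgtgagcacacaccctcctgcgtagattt
Abcc2 held 1 antioxidant core, TGACATAGC, whose first base is at -98 from the start site. Abcc4 held 1 antioxidant core on the opposite strand at -25 and 2 xenobiotic cores in the promoter shown, and another antioxidant core, TGACTCTGC, at -23 in its other promoter, and no match stood in the Ugt1a7c window. The antioxidant core was in 6 of the 22 promoters of tested members, which belong to 4 genes (Abcb1a, Abcc2, Abcc4 and Abcc10), and in 12.39% of the 32851 promoters of the table, and the xenobiotic core in 6 of the 22 and in 32.39%. The promoter of Abcb1a lies 92986 bases from the gene start of the deposited table, and Abcc4, Abcc10, Sult1b1 and Sult2b1 have 2 promoters each. A match is a run of letters, and was not tested as a binding site.

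Of the 55 members, 21 reached an FPKM of 1 in at least 3 libraries and were tested among 12740 genes: 8 UGT, 5 SULT and 8 pumps. The other 34 did not: 18 had no fragment assigned in any library, 4 had 1 to 3 fragments at most, and 12 had more than 3 in some library. A member was called where the limma adjusted p was below 0.05 and the log2 fold change exceeded 1 in either direction. With hemin, 5 members were called higher and 2 lower in control, where 2.17% and 5.93% of all genes tested were called in those directions. In colonoids labelled KO, hemin gave 8 higher and 2 lower, against 4.87% and 8.07% of all genes. Colonoids labelled KO against control gave 1 higher and 5 lower with vehicle (3.53% and 3.27% of all genes), and 3 higher and 6 lower with hemin (3.1% and 2.91%). The difference between the responses, that of those labelled KO minus that of control, was called positive for 3 members (2.57% of all genes), each of which rose more in those labelled KO. It was called negative for 0 by limma (2.56%), with 4 negative at an unadjusted p under 0.05 and 1 called by limma-voom on fragments. By the adjusted p alone, hemin gave 11 higher and 3 lower in control, where 49.9% of all genes passed in either direction, and 11 higher and 3 lower in those labelled KO, where 60.4% did. The genotypes then gave 1 higher and 10 lower with vehicle (34.2% of all genes), 8 higher and 9 lower with hemin (34.4%), and 8 positive and 1 negative differences between the responses (23.8%). Of the 8, Sult2b1 is one that fell less in those labelled KO. These counts cover 21 members only, and 9 of them passed the filter through fewer than 4 groups. Of these, Abcc2 passed through those labelled KO with hemin alone, and Ugt2b5, Ugt2b36 and Ugt8a through the controls alone. Ugt2b35, the member called higher in those labelled KO with vehicle, reached 1 FPKM in all 6 libraries labelled KO and in 1 control library, and so passed through those labelled KO. For these 5 a difference between those groups followed from the filter. limma-voom on the recovered fragments called every one of the 35 member results that limma called, in the same direction, and 14 more.

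**Figure D2:**
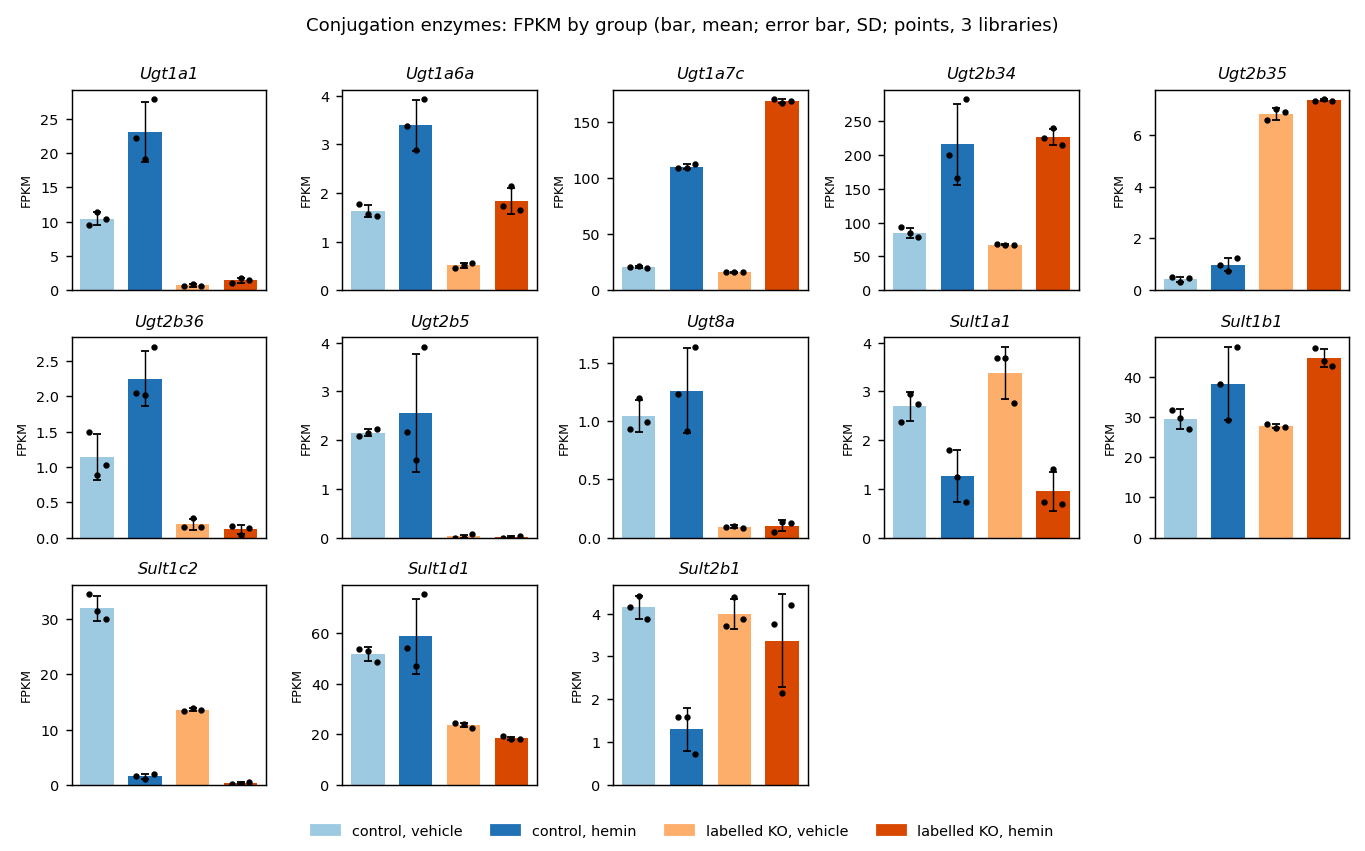
FPKM of the 13 conjugation enzymes tested, in 4 groups of 3 libraries each; bars are means, error bars SD and points single libraries, and each panel has its own scale from 0. Ugt1a7c and Ugt2b34 stand higher with hemin in both genotypes, Sult1c2 stands lower, and Ugt1a1, Ugt2b5, Ugt2b36 and Ugt8a stand low in colonoids labelled KO.

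Ugt2b34 and Ugt1a7c together made up 85.1% to 86.9% of the summed FPKM of the 22 UGT genes in control with vehicle and 97.2% to 97.3% in those labelled KO with hemin. These shares rest on FPKM, which understates the Ugt1a genes unequally: per kilobase of own bases, scaled as FPKM is, Ugt1a1 was at 60.2 and Ugt1a7c at 45.4 in control with vehicle, and at 8.22 and 373 in those labelled KO with hemin. The own bases of Ugt1a1 number 385, or 913 were fragments counted by strand. The sum of FPKM itself was 123 ± 7.66 FPKM (SD, n = 3) in control with vehicle, 361 ± 69.3 in control with hemin, 91.5 ± 0.477 in those labelled KO with vehicle and 407 ± 11.8 in those labelled KO with hemin.

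Ugt1a7c (chr1:88095062-88220002), one of the 9 alternative first exons of the locus, had the largest rise with hemin on the log2(FPKM + 1) scale of the members tested in each genotype. Its FPKM was 20.2, 21.7 and 19.9 in control with vehicle and 109, 109 and 113 with hemin, and 15.8, 15.9 and 16.4 and 171, 168 and 169 in those labelled KO. No library with hemin overlapped one with vehicle, and the libraries labelled KO were the lowest with vehicle and the highest with hemin. The mean rose 5.36-fold in control (2.37 on the log2 scale, SE 0.05, limma adjusted p = 2.46e-10) and 10.6-fold in those labelled KO (3.32, SE 0.05, limma adjusted p = 7.13e-12). The difference between these responses, 0.96 (SE 0.07, limma adjusted p = 6.05e-06), had a small adjusted p and stood just under the threshold of 1.

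Ugt2b34 (chr5:86889767-86906937, - strand) belongs to the UGT2B enzymes, known for conjugating steroids and bile acids, and was the UGT gene with the highest FPKM in each group, beside Ugt1a genes whose FPKM is understated. Per kilobase of own bases, Ugt1a7c was higher with hemin, at 243 in control and 373 in those labelled KO, against 216 and 227. The FPKM of Ugt2b34 was 92.9, 83.8 and 77.8 in control with vehicle and 199, 166 and 283 with hemin. Those labelled KO were at 67.6, 67.03 and 66.02 with vehicle and 226, 239 and 215 with hemin. Every library with hemin lay above every library with vehicle, and the 3rd control library with hemin lay above the other 2 of its group. The rise was 2.54-fold in control (1.31, SE 0.15, limma adjusted p = 4.25e-05) and 3.39-fold in those labelled KO (1.74, SE 0.15, limma adjusted p = 2.82e-06). The genotypes overlapped with hemin, and the difference between responses was 0.44 (SE 0.22, limma adjusted p = 0.178).

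Ugt1a1 (chr1:88211959-88218997), the bilirubin-conjugating enzyme, was low in colonoids labelled KO whatever the treatment. In control its FPKM was 9.54, 11.4 and 10.3 with vehicle and 22.2, 19.2 and 27.9 with hemin. Libraries labelled KO held 0.633, 0.884 and 0.534 and 1.03, 1.701 and 1.54. The genotypes were far apart with no overlap: the mean was 15.2-fold lower with vehicle (log2 fold change -2.76, SE 0.15, limma adjusted p = 9.58e-08) and 16.2-fold lower with hemin (-3.31, SE 0.15, limma adjusted p = 2.52e-08). Hemin raised the mean 2.22-fold in control (1.06, SE 0.15, limma adjusted p = 1.29e-04), a call that was lost when the values were rescaled to TPM (0.88) or the 3rd control library with hemin was left out (0.92). In those labelled KO the mean was 2.08-fold higher with hemin on the linear scale and 0.52 on the log2(FPKM + 1) scale (SE 0.15, limma adjusted p = 0.00964), where limma-voom called it (1.08, limma-voom adjusted p = 0.0237), and the difference between the log2 responses was -0.54 (SE 0.21, limma adjusted p = 0.0819).

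Ugt1a6a (chr1:88134809-88218997), an enzyme for small phenols, was at 1.63 ± 0.127 FPKM (SD, n = 3) in control with vehicle, 3.396 ± 0.524 in control with hemin, 0.5095 ± 0.0554 in those labelled KO with vehicle and 1.84 ± 0.2698 in those labelled KO with hemin. The means stood 2.09-fold apart with hemin in control, 3.61-fold in those labelled KO and 3.19-fold between genotypes with vehicle. On the log2(FPKM + 1) scale none of these passed the threshold of 1 (0.74, SE 0.10, limma adjusted p = 1.41e-04; 0.91, SE 0.10, limma adjusted p = 1.90e-05; -0.80, SE 0.10, limma adjusted p = 1.10e-04). By limma-voom on fragments all 3 were called (1.05, limma-voom adjusted p = 7.95e-05; 1.87, limma-voom adjusted p = 6.18e-06; -1.67, limma-voom adjusted p = 4.93e-05). Since fragments counted to Ugt1a6a may be unspliced RNA of other Ugt1a genes, none of these differences can be ascribed to this gene alone.

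Neighbouring genes of the Ugt2b cluster on chr5 differed between genotypes in opposite directions. Ugt2b35 (chr5:87000860-87013275, + strand) was at 0.505, 0.314 and 0.455 FPKM in control with vehicle and 0.966, 0.7301 and 1.25 with hemin, and at 6.57, 7.03 and 6.896 and 7.32, 7.39 and 7.32 in those labelled KO. Every library labelled KO was above every control library, and the means stood 16.1-fold apart with vehicle (2.46, SE 0.094, limma adjusted p = 8.22e-09) and 7.48-fold with hemin (2.08, SE 0.094, limma adjusted p = 2.96e-08). These differences followed from the filter, as said above. Ugt2b5 (chr5:87124960-87140318, - strand) was at 2.09, 2.14 and 2.23 in control with vehicle and 2.17, 1.59 and 3.92 with hemin, and at 0, 0 and 0.0639 and 0, 0 and 0.0375 in those labelled KO. That is 189 fragments over 3 control libraries against 2 over 3 labelled KO with vehicle, a ratio of 101 (95% counting interval 27.5 to 838), and 166 against 1 with hemin, a ratio of 249 (95% counting interval 43.998 to 9875). Ugt2b5 was all but missing from the libraries labelled KO, the group in which Ugt2b35 was high. The fitted differences of Ugt2b5 were -1.63 (SE 0.18, limma adjusted p = 4.12e-05) with vehicle and -1.76 (SE 0.18, limma adjusted p = 2.38e-05) with hemin.

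Between them lies Ugt2b36 (chr5:87065927-87092555, - strand), which went the way of Ugt2b5. Its FPKM was 1.502, 0.881 and 1.02 in control with vehicle and 2.04, 2.01 and 2.702 with hemin, and 0.149, 0.281 and 0.144 and 0.169, 0.0413 and 0.135 in those labelled KO. The genotypes did not overlap. With hemin the libraries labelled KO were called lower (-1.54, SE 0.13, limma adjusted p = 4.13e-06; 162 fragments against 11, a ratio of 22.1 (95% counting interval 12.001 to 45.1)), and with vehicle the difference was -0.83 (SE 0.13, limma adjusted p = 4.10e-04), under the threshold, where limma-voom called it (-2.51, limma-voom adjusted p = 5.78e-04). The Ugt2b genes are close copies of each other, and the sources used here do not say how fragments that match several copies were counted, so their split between neighbours is uncertain. With hemin limma called none of Ugt2b5, Ugt2b36 and Ugt2b35 in either genotype, and limma-voom called Ugt2b35 (1.20, limma-voom adjusted p = 0.00255) and Ugt2b36 (1.00, limma-voom adjusted p = 0.00774) higher in control. It also called the difference between the responses of Ugt2b35 (-1.09, limma-voom adjusted p = 0.0153).

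Ugt8a (chr3:125865271-125938619, - strand) is a UGT by sequence that joins galactose to ceramide and conjugates no drug. It was at 0.936, 1.1997 and 0.995 FPKM in control with vehicle and 1.24, 0.914 and 1.64 with hemin, and at 0.0944, 0.102 and 0.0786 and 0.0459, 0.131 and 0.123 in those labelled KO. The genotypes did not overlap, with 225 fragments against 21 with vehicle, a ratio of 11.4 (95% counting interval 7.296 to 18.8). The fitted difference passed with hemin (-1.03, SE 0.12, limma adjusted p = 5.40e-05) and not with vehicle (-0.90, SE 0.12, limma adjusted p = 1.36e-04), where limma-voom called it (-3.42, limma-voom adjusted p = 2.10e-05). The call with hemin was lost on the TPM scale and without the 3rd control library or the 1st library labelled KO with hemin, where the difference was between -0.91 and -0.99.

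Glucuronidation needs UDP-glucuronic acid, which Ugp2 and Ugdh make in turn from glucose phosphate and Slc35d1 carries into the endoplasmic reticulum. Ugdh, the enzyme that oxidises UDP-glucose to the donor, was at 34.7 to 37.2 FPKM in control with vehicle and 336 to 411 with hemin, and at 10.01 to 11.02 and 233 to 238 in those labelled KO. The ranges did not overlap between any of the 4 groups. It rose with hemin in control (3.33, SE 0.073, limma adjusted p = 2.46e-10) and in those labelled KO (4.37, SE 0.073, limma adjusted p = 1.82e-11), with a larger response in the latter (1.05, SE 0.10, limma adjusted p = 4.40e-05). Before hemin it was lower in those labelled KO (-1.70, SE 0.073, limma adjusted p = 1.93e-08). Slc35d1 also rose in both genotypes (1.11 in control and 1.29 in those labelled KO) and Ugp2 rose in those labelled KO (1.20, SE 0.14, limma adjusted p = 2.44e-05). Of the 6 genes of the donor and deconjugation list, 2 were called higher with hemin in control and 3 in those labelled KO (2.17% and 4.87% of all genes tested), with medians of 0.53 and 0.78 beside -0.013 and -0.0019 over all genes tested.

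The sulfotransferases that were called with hemin were lower, not higher. The 21 SULT genes summed to 121 ± 7.09 FPKM (SD, n = 3) in control with vehicle, 102 ± 23.3 in control with hemin, 72.95 ± 1.85 in those labelled KO with vehicle and 68.004 ± 2.93 in those labelled KO with hemin. With vehicle the sum was lower in every library labelled KO than in every control library. Of the 5 tested, 2 were called lower with hemin in control and 2 in those labelled KO (5.93% and 8.07% of all genes tested).

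Sult1c2 (chr17:53829637-53846339, - strand), a phenol sulfotransferase of the SULT1 group, had the largest fall with hemin of the members tested in each genotype on that scale. Its FPKM was 34.5, 31.4 and 29.996 in control with vehicle and 1.71, 1.05 and 1.99 with hemin. Those labelled KO were at 13.4, 13.98 and 13.5 with vehicle and 0.263, 0.253 and 0.491 with hemin. The 4 groups did not overlap at all: hemin was lower within each genotype, and those labelled KO lower within each treatment. With hemin the mean was 20.2-fold lower in control (-3.69, SE 0.13, limma adjusted p = 5.98e-09). The libraries labelled KO held 1272 fragments with vehicle against 31 with hemin, a ratio of 42.5 (95% counting interval 29.8 to 62.8) (-3.46, SE 0.13, limma adjusted p = 4.07e-09). With vehicle the libraries labelled KO were 2.34-fold lower than control (-1.17, SE 0.13, limma adjusted p = 3.12e-05), and with hemin the difference was -0.94 (SE 0.13, limma adjusted p = 1.73e-04), just under the threshold of 1 in size, while limma-voom called it (-2.25, limma-voom adjusted p = 3.96e-04).

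Sult1d1 (chr5:87554645-87569027, - strand), whose enzyme sulfates catecholamines, was the SULT gene with the highest FPKM in control and differed by genotype. It was at 53.8, 53.1 and 48.9 FPKM in control with vehicle and 54.1, 46.9 and 75.5 with hemin, and at 24.5, 23.997 and 22.8 and 19.3, 18.2 and 18.1 in those labelled KO. The control libraries overlapped across treatment, and every control library was above every library labelled KO. The mean was 2.19-fold lower in those labelled KO with vehicle (-1.10, SE 0.13, limma adjusted p = 8.09e-05) and 3.18-fold lower with hemin (-1.59, SE 0.13, limma adjusted p = 4.96e-06). The call with vehicle was lost on the TPM scale (-0.95).

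Its neighbour Sult1b1 (chr5:87513339-87538195, - strand), which sulfates thyroid hormone and phenols, was called in no comparison by limma or limma-voom. It stood at 29.5 ± 2.45 FPKM (SD, n = 3) in control with vehicle and 38.3 ± 9.09 with hemin, and at 27.8 ± 0.545 and 44.7 ± 2.31 in those labelled KO, where the log2 fold change with hemin was 0.67 (SE 0.14, limma adjusted p = 0.0015).

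Sult2b1 (chr7:45729983-45784669, - strand) sulfates cholesterol and related sterols. Its FPKM was 4.14, 4.41 and 3.87 in control with vehicle and 1.598, 1.58 and 0.715 with hemin, and 3.701, 4.39 and 3.88 and 3.76, 2.15 and 4.199 in those labelled KO. In control hemin was lower without overlap, and in those labelled KO the treatments overlapped. The fall in control, 3.19-fold (-1.19, SE 0.20, limma adjusted p = 4.70e-04), was no longer past the threshold without the 3rd control library with hemin (-0.99). In those labelled KO the log2 fold change was -0.22 (SE 0.20, limma adjusted p = 0.351), and the difference between the responses was 0.96 (SE 0.28, limma adjusted p = 0.0276), under the threshold of 1. limma-voom called that difference (1.38, limma-voom adjusted p = 0.0233) and the one between genotypes with hemin (1.33, limma-voom adjusted p = 0.00698). Gm31597 and Lmtk3 overlap Sult2b1 on the other strand and held at most 14 and 24 fragments in any library.

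Sult1a1 (chr7:126672865-126676432, - strand), the broad phenol sulfotransferase, was at 2.37, 2.95 and 2.75 FPKM in control with vehicle and 1.803, 1.23 and 0.738 with hemin, and at 3.69, 3.69 and 2.76 and 0.737, 1.41 and 0.694 in those labelled KO. Hemin was lower without overlap in both genotypes, and the genotypes overlapped within each treatment. It was called lower in those labelled KO (-1.18, SE 0.19, limma adjusted p = 2.33e-04). In control the difference, -0.73 (SE 0.19, limma adjusted p = 0.00695), did not reach the fold threshold, while limma-voom called it (-1.16, limma-voom adjusted p = 0.0102), and the 2 responses differed by -0.45 (SE 0.26, limma adjusted p = 0.258). The gene overlaps Sgf29 on the other strand, which held 211 to 511 fragments per library, and whether the counting used strand is not given in the sources used here.

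PAPS, the sulfate donor, is made by Papss1 and Papss2. Papss2 was at 108 to 119 FPKM in control with vehicle and 117 to 179.9 with hemin, and at 45.1 to 46.4 and 53.5 to 55.7 in those labelled KO, lower in every library labelled KO (-1.28 with vehicle, SE 0.12, limma adjusted p = 1.08e-05; -1.40 with hemin, SE 0.12, limma adjusted p = 5.99e-06). Papss1 was at 39.6 to 40.6 in control with vehicle and 57.6 to 59.8 in those labelled KO. Suox, the mitochondrial enzyme that oxidises sulfite to sulfate, was at 28.9 to 35.2 in control with vehicle, 35.4 to 38.9 with hemin, and at 3.66 to 4.34 and 13.6 to 15.7 in those labelled KO. It was lower in those labelled KO with both treatments (-2.73, SE 0.087, limma adjusted p = 1.84e-09; -1.27, SE 0.087, limma adjusted p = 9.14e-07) and rose with hemin there (1.66, SE 0.087, limma adjusted p = 6.34e-08). Of the 11 genes tested of the sulfate list, 1 was called higher and 2 lower in those labelled KO with vehicle (3.53% and 3.27% of all genes tested), the higher one being the chloride and sulfate exchanger Slc26a3 (1.32, SE 0.12, limma adjusted p = 7.44e-06). With hemin in those labelled KO, Suox was called higher and Tpst1, a tyrosine sulfotransferase of the Golgi, lower (-1.17, SE 0.15, limma adjusted p = 4.24e-05).

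**Figure D3:**
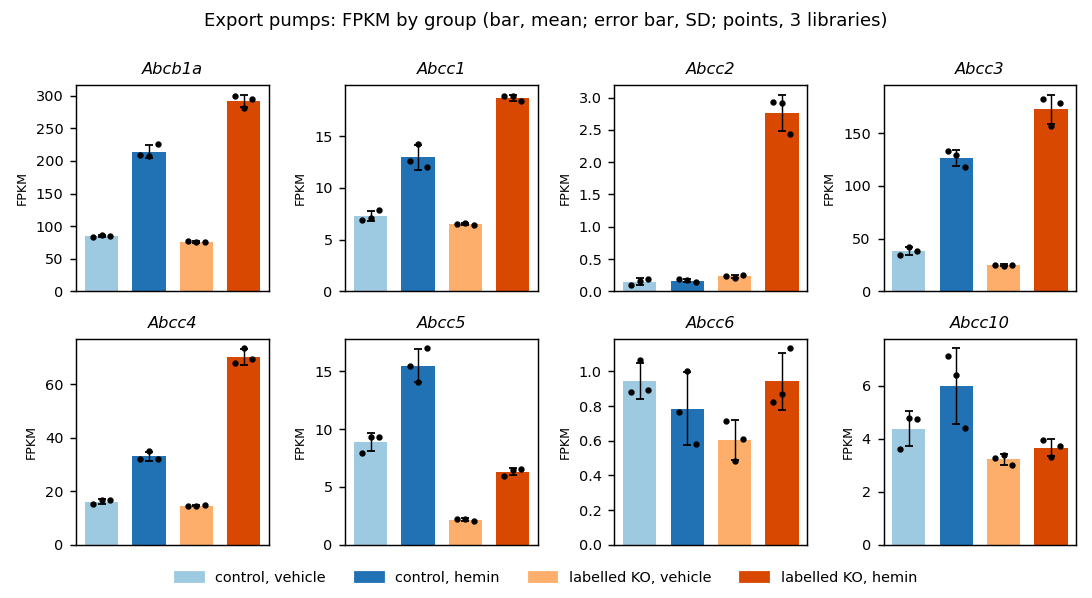
FPKM of the 8 export pumps tested, in 4 groups of 3 libraries each; bars are means, error bars SD and points single libraries, and each panel has its own scale from 0. Abcb1a, Abcc1, Abcc3 and Abcc4 stand higher with hemin in both genotypes and highest in colonoids labelled KO, Abcc2 stands up in that group alone, and Abcc5 is lower in those labelled KO at each treatment.

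Of the 8 pumps tested, 2 were called higher with hemin in control and 6 in those labelled KO, and the difference between the responses was called for 3 (2.17%, 4.87% and 2.57% of all genes tested). The 6 and the 3 include Abcc2, which passed the filter through those labelled KO with hemin alone. The 12 genes summed to 161 ± 8.01 FPKM (SD, n = 3) in control with vehicle and 409.7 ± 2.12 in control with hemin, and to 129 ± 2.201 and 567 ± 19.9 in those labelled KO. Abcb1a and Abcc3 made up 75.4% to 83.8% of the sum in every library.

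Abcc3 (chr11:94343295-94392997, - strand) is the basolateral pump for glucuronides and bile acids. Its FPKM was 34.6, 41.9 and 38.1 in control with vehicle and 133, 129 and 118 with hemin. Those labelled KO had 25.3, 23.6 and 25.2 with vehicle and 182, 157 and 179 with hemin. The 4 groups did not overlap, with those labelled KO the lower with vehicle and the higher with hemin. The rise was 3.31-fold in control (1.71, SE 0.084, limma adjusted p = 8.48e-08) and 6.99-fold in those labelled KO (2.75, SE 0.084, limma adjusted p = 1.06e-09). The response was larger in those labelled KO by 1.05 (SE 0.12, limma adjusted p = 1.12e-04). That call was lost on the TPM scale (0.91), and without the 2nd control library with vehicle (0.98) or the 3rd control library with hemin, where the value was just under 1.

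Abcc4 (chr14:118482692-118706219, - strand), a pump for cyclic nucleotides, urate and prostaglandins, was at 15.1, 16.5 and 16.7 FPKM in control with vehicle and 31.98, 35.1 and 32.2 with hemin. Those labelled KO stood at 14.5, 14.6 and 14.7 with vehicle and 67.9, 73.5 and 69.5 with hemin. With hemin every library labelled KO was above every control library. The rise was 4.81-fold in those labelled KO (2.19, SE 0.059, limma adjusted p = 4.42e-10) and 2.05-fold in control, where 0.99 on the log2 scale stood just under the threshold (SE 0.059, limma adjusted p = 3.22e-07) and limma-voom called it (1.04, limma-voom adjusted p = 4.81e-08). The responses differed by 1.20 (SE 0.084, limma adjusted p = 4.56e-06), and with hemin those labelled KO were 2.12-fold above control (1.07, SE 0.059, limma adjusted p = 1.69e-07). With vehicle the difference was -0.13 (SE 0.059, limma adjusted p = 0.12). Its promoter is among those printed above.

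Abcc2 (chr19:43782192-43840740), the apical pump for bilirubin glucuronides, was low in 3 of the 4 groups. Its FPKM was 0.0924, 0.158 and 0.196 in control with vehicle, 0.185, 0.168 and 0.1405 in control with hemin and 0.244, 0.2102 and 0.251 in those labelled KO with vehicle. In those labelled KO with hemin it was 2.93, 2.91 and 2.44, above every other library. Over 3 libraries that is 1244 fragments against 49 in control with hemin, a ratio of 16.96 (95% counting interval 12.7 to 23.05). The rise with hemin in those labelled KO was 11.8-fold (1.60, SE 0.088, limma adjusted p = 8.21e-08) and the 2 treatments overlapped in control (0.02, SE 0.088, limma adjusted p = 0.867). The responses differed by 1.58 (SE 0.12, limma adjusted p = 9.69e-06), and with hemin those labelled KO were above control by 1.69 (SE 0.088, limma adjusted p = 9.17e-08). With limma-voom on the recovered fragments, which does not add 1 FPKM, these log2 values were 3.32 and 4.04. Abcc2 reached 1 FPKM in that group alone, so these differences followed from the filter, and without a filter on low values the first was called too (limma adjusted p = 1.17e-05 in the fit without a filter).

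Abcb1a (chr5:8660077-8748575), the apical drug efflux pump P-glycoprotein, had the highest FPKM of the pumps. It was at 82.6, 86.1 and 85.3 in control with vehicle and 209.7, 207 and 227 with hemin, and at 77.8, 75.2 and 75.6 and 299, 281 and 295 in those labelled KO. Hemin and vehicle were apart in both genotypes. The rise was 2.53-fold in control (1.33, SE 0.054, limma adjusted p = 2.17e-08) and 3.83-fold in those labelled KO (1.92, SE 0.054, limma adjusted p = 6.20e-10), and the responses differed by 0.59 (SE 0.077, limma adjusted p = 2.72e-04), under the threshold of 1. Gm42686 overlaps it on the other strand with 20 to 128 fragments per library. Abcb1b, its close relative on the same chromosome, stayed between 4 and 29 fragments per library, and fragments that match both copies are uncertain.

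Abcc1 (chr16:14361558-14475737), known for the export of leukotriene C4 and glutathione conjugates, was at 6.898, 7.09 and 7.85 FPKM in control with vehicle and 12.6, 14.3 and 11.98 with hemin, and at 6.52, 6.64 and 6.45 and 18.9, 18.8 and 18.4 in those labelled KO. The treatments did not overlap in either genotype, and with hemin those labelled KO were the higher. It was called in those labelled KO, with a 2.86-fold rise (1.39, SE 0.069, limma adjusted p = 4.26e-08), and not in control, where the log2 fold change was 0.75 (SE 0.069, limma adjusted p = 7.11e-06). The difference between responses was 0.63 (SE 0.098, limma adjusted p = 8.78e-04).

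Abcc5 (chr16:20331303-20426394, - strand), an exporter of cyclic nucleotides and of heme, was the pump called lower in colonoids labelled KO. Its FPKM was 7.96, 9.35 and 9.35 in control with vehicle and 15.4, 14.1 and 16.98 with hemin, and 2.205, 2.26 and 2.02 and 5.94, 6.44 and 6.54 in those labelled KO. Those labelled KO with hemin stayed below control with vehicle. The mean was 4.11-fold lower in those labelled KO with vehicle (-1.64, SE 0.082, limma adjusted p = 6.50e-08) and 2.46-fold lower with hemin (-1.17, SE 0.082, limma adjusted p = 1.14e-06). Hemin raised it 2.92-fold in those labelled KO (1.21, SE 0.082, limma adjusted p = 4.10e-07), a call lost on the TPM scale (0.95), and in control the difference was 0.74 (SE 0.082, limma adjusted p = 2.89e-05).

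Abcc10, a pump of glucuronides, and Abcc6, best known from the liver, were called in no comparison by limma or limma-voom. Abcc10 (chr17:46303221-46328352, - strand) was at 4.38 ± 0.656 FPKM (SD, n = 3) in control with vehicle, 5.99 ± 1.43 in control with hemin, 3.22 ± 0.204 in those labelled KO with vehicle and 3.66 ± 0.329 in those labelled KO with hemin, and with hemin the genotypes differed by -0.57 (SE 0.14, limma adjusted p = 0.0106). Abcc6 (chr7:45967555-46030302, - strand) was at 0.945 ± 0.103, 0.785 ± 0.211, 0.605 ± 0.116 and 0.943 ± 0.166 FPKM in the same order, with 157 fragments over the 3 shallowest libraries, those of control with hemin.

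**Figure D4:**
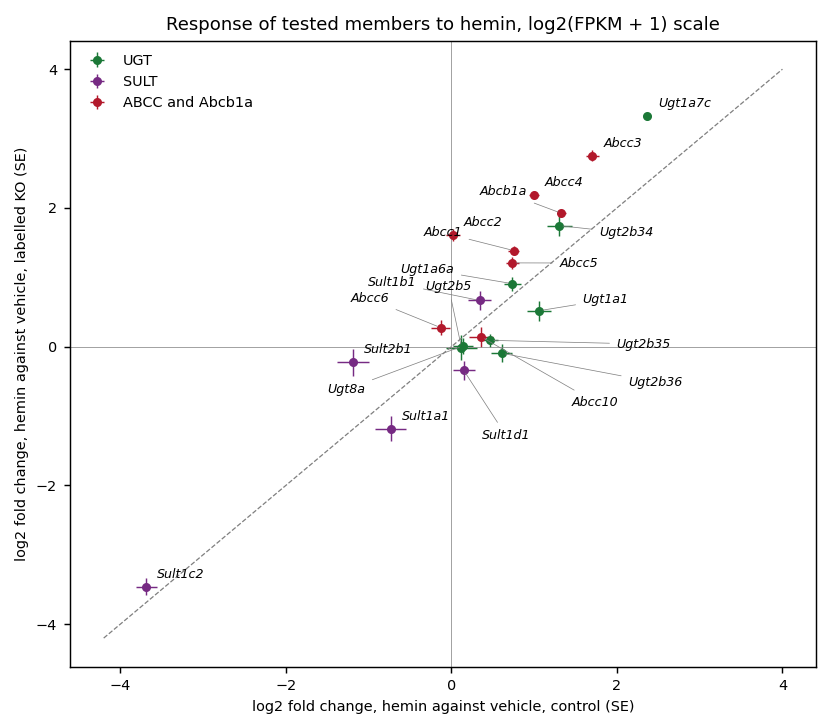
Log2 fold change with hemin in control (x axis) and in colonoids labelled KO (y axis) of the 21 members tested, on the log2(FPKM + 1) scale; points are fitted values, error bars the standard error from limma and the dashed line marks equal values. Abcc2, Abcc3, Abcc4 and Ugt1a7c lie above the line, and Sult1c2 lies at the lower left with -3.69 and -3.46.

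**Figure D5:**
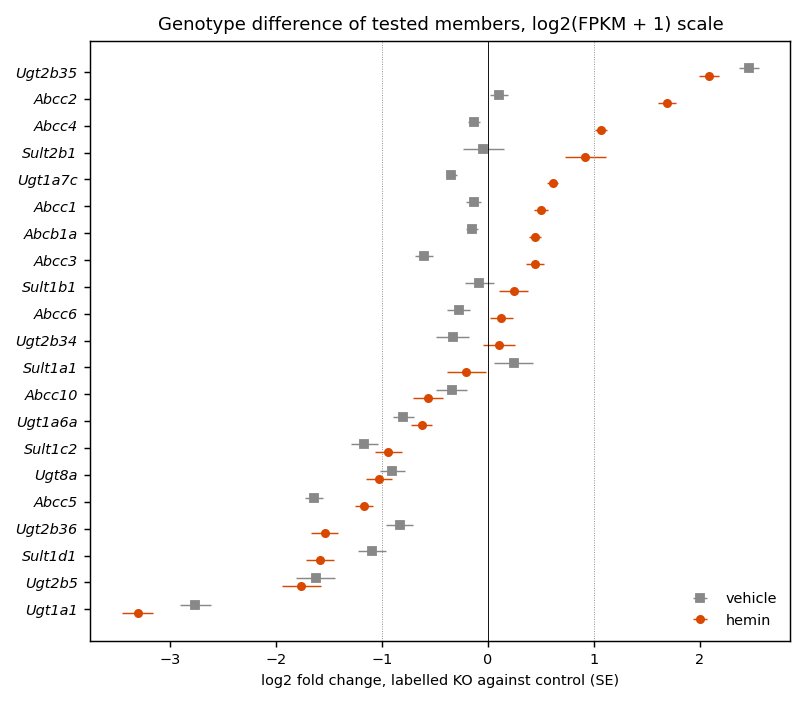
Log2 fold change of colonoids labelled KO against control for the 21 members tested, with vehicle (squares) and with hemin (circles), on the log2(FPKM + 1) scale; error bars are the standard error from limma and dotted lines mark the threshold of 1 either way. Ugt1a1 is lowest at -2.76 and -3.31 and Ugt2b35 highest at 2.46 and 2.08.

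Along the bilirubin route, in order, Hmox1 (larger by 2.81 on the log2 scale, SE 0.17, limma adjusted p = 1.83e-06) and Blvrb, a biliverdin reductase, had the larger response to hemin in those labelled KO, as had the pump Abcc3, whose call was lost in the settings given above, while Ugt1a1 was low. Abcc2 was higher in those labelled KO with hemin, the group through which it passed the filter. Blvra, the other biliverdin reductase, was at 9.45 to 10.6 FPKM in control with vehicle and 6.95 to 7.99 with hemin, and at 9.98 to 10.9 and 6.83 to 8.32 in those labelled KO. Its log2 fold changes with hemin were -0.37 (SE 0.082, limma adjusted p = 0.00332) and -0.47 (SE 0.082, limma adjusted p = 4.85e-04), under the threshold, and they differed by -0.10 (SE 0.12, limma adjusted p = 0.58). Blvrb was at 4.45 to 5.07 FPKM in control with vehicle and 4.46 to 6.87 with hemin, and at 3.03 to 3.72 and 8.403 to 10.3 in those labelled KO. It was called higher with hemin in those labelled KO (1.26, SE 0.14, limma adjusted p = 1.28e-05), and its response differed from control by 1.02 (SE 0.19, limma adjusted p = 0.00289). Of the 7 genes of the route that were tested, 3 were called higher with hemin in control and 4, Abcc2 included, in those labelled KO (2.17% and 4.87% of all genes tested), with medians of 0.44 and 1.26 beside -0.013 and -0.0019 over all genes.

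Other transporters of drugs and conjugates were given as a list beside the members. Of 7 tested, 1 was called lower with hemin in those labelled KO (8.07% of all genes tested), the chloride channel Cftr (-1.22, SE 0.14, limma adjusted p = 2.46e-05), with a list median of 0.15. Abcg2, the apical pump for sulfate conjugates and urate, had a log2 fold change with hemin of 0.77 in control (SE 0.11, limma adjusted p = 2.35e-04) and 0.17 in those labelled KO (SE 0.11, limma adjusted p = 0.218). Slc51a, a subunit of the basolateral bile acid exporter, reached 1 FPKM in control with vehicle alone (1.14 to 1.54, against 0 to 0.167 in those labelled KO), so its call with vehicle (-1.15) followed from the filter. The glutathione branch of conjugation was given as 12 genes, of which 3 were called higher and 1 lower with hemin in control and 7 higher in those labelled KO, beside 2.17%, 5.93% and 4.87% of all genes tested. Gsta1 (5.04), Gsta2 (4.06) and Gstp1 (3.04) had the largest log2 fold changes of that list in those labelled KO.

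The regulators known to drive these families were given as 16 tested genes. In control 0 were called with hemin by limma, with 7 at an unadjusted p under 0.05 and 1 called by limma-voom on fragments. In those labelled KO 0 were called, with 9 at an unadjusted p under 0.05 and 0 called by limma-voom. Between genotypes, 3 were called lower in those labelled KO with vehicle and 3 with hemin (3.27% and 2.91% of all genes tested). The bile acid receptor Nr1h4 was among them with both treatments (-1.63, SE 0.062, limma adjusted p = 7.56e-09; -1.44, SE 0.062, limma adjusted p = 1.95e-08), as was the intestinal factor Cdx2 (-2.03, SE 0.18, limma adjusted p = 6.11e-06; -1.27, SE 0.18, limma adjusted p = 2.54e-04). Pparg was lower with vehicle (-1.29, SE 0.093, limma adjusted p = 1.20e-06). Ppara was called lower with hemin (-1.09) and reached 1 FPKM in control with hemin alone, so that call followed from the filter.

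Of 11 other known targets of these regulators, 8 were called higher with hemin, 1 lower and 2 not in each genotype. The genes behind these counts differed in part. Cyp1b1 was called higher and Fgf15 lower in control alone, and Cyp2b10 lower in those labelled KO alone. Of all genes tested, 2.17% were called higher and 5.93% lower in control, and 4.87% and 8.07% in those labelled KO. Of the 11, 4 (Cyp1a1, Cyp1b1, Cyp2b10 and Fgf15) reached 1 FPKM in 2 groups or fewer, so these counts rest in part on the filter. Nqo1, a quinone reductase under NRF2, rose by 3.06 in control (SE 0.095, limma adjusted p = 3.17e-09) and 4.71 in those labelled KO (SE 0.095, limma adjusted p = 5.33e-11), and Cyp1a1, the oxidase under the aryl hydrocarbon receptor, by 6.02 and 6.99. Cyp1b1, under the same receptor, went the other way, by 3.01 and 0.37, and passed the filter through control with hemin alone. With hemin, Tiparp and Ahrr, also under it, were at 16.2 to 24.9 and 0.613 to 0.725 FPKM in control. In those labelled KO they were at 12.2 to 14.005 and 0.009 to 0.0812. Cyp1a1 reached 1 FPKM with hemin alone, so its differences followed from the filter. The same holds for Fgf15, the bile acid hormone under Nr1h4, which was at 1.999 to 2.05 FPKM in control with vehicle and at most 0.408 in any other library. Whether any of these regulators acts on the members was not tested.

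The members under the filter had few fragments assigned or none. In the UGT family 7 of 14 had no fragment in any library, and Ugt2b38, Ugt1a5, Ugt1a6b, Ugt1a2 and Ugt2b1 reached 4 to 16 fragments at most. In the SULT family 11 of 16 had none, among them the estrogen sulfotransferase Sult1e1 and the 8 Sult2a genes that sulfate bile acids and hydroxysteroids. Sult1c1, Sult5a1, Sult4a1 and Sult6b1 reached 4 to 12. Of the pumps, Abcc9 held 2 fragments in 1 library and Abcc12 at most 5. Abcc8, a sulfonylurea receptor that serves as a channel subunit, held 34 to 57 fragments in control with vehicle, 6 to 8 with hemin, and 70 to 80 and 7 to 11 in those labelled KO. It was the highest of the members under the filter, and hemin was lower than vehicle in every library of both genotypes. For a member at 0 whose exons no other gene model covers, a count of up to 3 per library is allowed by counting error, so its message was not detectable at this depth. For related genes such as the 8 Sult2a, how fragments matching several genes were counted is not given, so their 0 is uncertain. For Ugt2a1 and Ugt2a2, which overlap each other, 1.17% and 5.51% of the exon bases are covered by no other model, and Ugt1a8, Ugt1a9 and Ugt1a10 share exons as described, so their 0 does not show low message.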

How the data were processed

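Poly-A mRNA of 12 colonoid libraries was measured, 3 in each of 4 groups taken from the sample labels. The authors deposited 1 table of FPKM per gene; the submitters' processing notes name fastp, HISAT2 2.0.5, featureCounts 1.5.0-p3 and mm10, and a strand setting is not given in the sources used here. Every deposited value came out as a whole number of fragments (within 0.001), and fragments served for depth, intervals and floors of 3, which cover counting error only. Everything after the FPKM was computed here, in R 4.3.3 and Python 3.11.15. limma 3.58.1 was fitted to log2(FPKM + 1) of the 12740 genes that reached 1 FPKM in 3 or more libraries, with 1 mean per group and a trend (8 residual degrees of freedom), and p-values were adjusted over all of them by the Benjamini-Hochberg method. The 5 contrasts were tested, and gene lists were counted without a list test. On simulated data with 4-fold changes, the fit recovered 90.4% of 188 changed genes for hemin in colonoids labelled KO. Every simulated library had the same fixed spread, so recovery of smaller changes or under the unequal spread of these groups was not tested. Every tested member is named, and of the other lists those with the largest changes. The members and lists were chosen with earlier results of these data known. Sts of the lists was not matched by name and not analysed here, and Abcc7 stands in the table under its other symbol, Cftr. Alternatives covered the pseudocount, filter, scaling, block, moderation, samples, call rule, limma-voom on fragments and each library left out.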

Additional observations from a re-analysis of the deposited data

Results flagged for a closer look

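For 3 pumps the difference between genotypes in the response to hemin was called. For Abcc2 its value, 1.58 on the log2 scale, is given as a description: the gene reached 1 FPKM in colonoids labelled KO with hemin alone, so the difference followed from the filter on low values. The response in colonoids labelled KO exceeded that in control by 1.05 on the log2 scale for Abcc3 (limma adjusted p = 1.12e-04) and 1.20 for Abcc4 (limma adjusted p = 4.56e-06). Every library labelled KO with hemin was above every control library with hemin for each of the 3. Abcb1a and Abcc1 were above in the same way, and Abcc5 and Abcc10 below, so this does not mark out the 3. The share of all genes without overlap was not counted. The summed goblet cell markers were lowest in those labelled KO with hemin, at 468 to 534 FPKM, and their part in the differences of the 3 pumps was not tested.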

How the results depend on the processing

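Of 35 log2 fold changes of called members, 29 kept their call and direction under every alternative run, 6 lost it in some, and 0 turned. Median-of-ratios scaling gave the same factor, 1.009, for every library. The deposited FPKM thus already carried that scaling, and this setting could change next to nothing. On the TPM scale the median of all genes shifted by -0.15 for hemin in control, -0.27 for hemin in those labelled KO, 0.13 between genotypes with vehicle and -0.13 for the difference in response. The 6 were Sult2b1 and Ugt1a1 with hemin in control, Abcc5 with hemin in those labelled KO, Sult1d1 between genotypes with vehicle, Ugt8a between genotypes with hemin, and the difference in response of Abcc3. The TPM scale without Gm23935, chosen after seeing the data, also lost Ugt1a1 (0.97) and Abcc3 (0.93).

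Members called higher with hemin in control numbered 5, and 8 with a pseudocount of 0.1, 11 by the adjusted p alone and 9 by limma-voom. Those called lower between genotypes with vehicle numbered 5, and 8, 10 and 8 under the same settings. By the adjusted p alone, 8 were higher between genotypes with hemin (3 as reported) and the difference between the responses was positive for 8 (3 as reported). It was negative for 1 member under each of these settings (0 as reported). A minimum mean FPKM of 5 left 1 lower with hemin in control and 1 in those labelled KO (2 each as reported), 0 higher between genotypes with vehicle (1 as reported), and 1 higher and 3 lower with hemin (3 and 6 as reported), since it tests fewer genes (7606).

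Leaving out each library in turn gave 5 to 6 higher and 1 to 2 lower with hemin in control, 8 higher and 2 lower with hemin in those labelled KO, 1 higher and 5 lower between genotypes with vehicle, 3 to 4 higher and 5 to 7 lower with hemin, and 2 to 4 positive and 0 negative differences between the responses. The count of 1 lower in control came without the 3rd control library with hemin, and 2 positive differences without that library or the 2nd control library with vehicle.

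With the replicate number as a replicate block, the calls of all 5 comparisons were shared with the fit without it (7, 10, 6, 9 and 3). Libraries of the same number did not deviate together (mean correlation -0.042, between -0.327 and 0.179, over 18 pairs), and the labels give no origin for the numbers. Control with hemin was the shallowest group, with at most 11935604 fragments, which limits its low members most.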
